A study of Mus musculus with 15 samples.

Results

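Immunoglobulin variable segments are the gene segments that encode the antigen-contacting front part of antibody heavy chains (Ighv) and of the kappa (Igkv) and lambda (Iglv) light chains. The segments described here are the rows of the lung count table whose mouse symbol starts with Ighv, Igkv or Iglv and whose counts summed over all libraries reach 10, which gave 216 of 55421 genes in the table. They comprise 108 Ighv segments on chromosome 12, 105 Igkv segments on chromosome 6 and 3 Iglv segments on chromosome 16 of build GRCm38. Another 132 rows with these symbols stayed below the minimum: 43 held no count and 89 held 1 to 9. Just inside the minimum lay Ighv8-7, Igkv11-114 and Igkv12-47 with 10 counts each, and just outside it Ighv1-14, Ighv1-79 and Ighv2-1 with 9 each, all 6 annotated as pseudogenes. Of the members, 196 are annotated as genes and 20 as pseudogenes, and 154 had a count in every library.

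Lung lobes of 15 wild-type female C57BL/6 mice, 5 separate mice per group by the design text, gave the total RNA that was sequenced. All 15 received 10 µg of house dust mite (HDM) extract intranasally on 5 days of each of 2 weeks, a model of allergic airway inflammation, and lungs were collected on day 15. The HDM group had this challenge alone, the long-term group also received mesenchymal stem cells (MSCs) from adipose tissue intranasally on day 6, and the short-term group received them on day 13. Saline-treated mice were not analysed here, so every comparison is within challenged lung, and neither the age of the mice nor the donor of the MSCs is given in the sources used here.

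A developing B cell joins a single heavy-chain variable segment to D and J segments and a single light-chain variable segment to a J segment, and all of its descendants carry the same pair. When such a cell is activated it divides and may become a plasma cell, which transcribes its rearranged genes at a far higher rate than a resting B cell. Segment counts in bulk lung therefore add up B cells and plasma cells with very different RNA content, and fewer cells of a type cannot be told apart from less RNA per cell.

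The sequences below show the segments on which the results turn. The first pair, Ighv11-2 (chr12:114048241-114048812, minus strand) and Igkv14-126 (chr6:67896172-67896642, plus strand), is known from mouse B-1 cells, a self-renewing B-cell subset, as a receptor for phosphatidylcholine. The last 300 bases of the annotated GRCm38 transcript are printed 5′ to 3′, with the codon of the conserved cysteine that ends framework 3 in capitals; what follows it is the germline start of the third complementarity-determining region.
Ighv11-2: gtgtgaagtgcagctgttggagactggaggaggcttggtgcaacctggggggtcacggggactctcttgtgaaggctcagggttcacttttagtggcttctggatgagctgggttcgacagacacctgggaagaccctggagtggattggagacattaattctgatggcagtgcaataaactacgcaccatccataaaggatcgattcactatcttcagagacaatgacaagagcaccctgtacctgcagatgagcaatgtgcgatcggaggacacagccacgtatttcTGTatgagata
Igkv14-126: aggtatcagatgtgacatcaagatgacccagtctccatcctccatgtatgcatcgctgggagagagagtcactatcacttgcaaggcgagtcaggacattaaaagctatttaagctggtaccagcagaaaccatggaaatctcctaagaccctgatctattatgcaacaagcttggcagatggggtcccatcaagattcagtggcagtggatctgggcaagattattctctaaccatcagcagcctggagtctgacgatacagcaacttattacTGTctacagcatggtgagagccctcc

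A second pair of segments known from B-1 cells with the same specificity, Ighv12-3 (chr12:114366521-114366954, minus strand) and Igkv4-91 (chr6:68768555-68769103, minus strand), is shown by its last 60 bases, as are some of the segments that led a library. Ighv7-3 (chr12:114153180-114153644, minus strand) and Igkv1-122 (chr6:68016718-68017488, plus strand) were both abundant in a single library. Ighv1-80 (chr12:115912344-115912776, minus strand), Ighv1-82 (chr12:115952538-115953005, minus strand), Ighv5-16 (chr12:113838526-113839010, minus strand), Igkv12-89 (chr6:68834846-68835307, minus strand) and Igkv1-117 (chr6:68121046-68121827, plus strand) are among the most used segments of their chain.
Ighv12-3: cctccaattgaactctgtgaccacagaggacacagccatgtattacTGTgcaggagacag
Igkv4-91: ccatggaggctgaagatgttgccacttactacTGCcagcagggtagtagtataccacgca
Ighv7-3: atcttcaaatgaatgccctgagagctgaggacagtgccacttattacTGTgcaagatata
Igkv1-122: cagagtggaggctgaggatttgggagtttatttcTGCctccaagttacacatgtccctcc
Ighv1-80: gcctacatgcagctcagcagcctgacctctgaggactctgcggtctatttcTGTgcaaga
Ighv1-82: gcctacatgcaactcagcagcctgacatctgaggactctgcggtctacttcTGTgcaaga
Ighv5-16: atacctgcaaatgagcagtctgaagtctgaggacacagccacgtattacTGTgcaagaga
Igkv12-89: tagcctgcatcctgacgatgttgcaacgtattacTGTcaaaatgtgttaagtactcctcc
Igkv1-117: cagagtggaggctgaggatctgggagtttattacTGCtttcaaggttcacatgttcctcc
Ighv1-80 and Ighv1-82 differ at 11 of their last 290 bases (96.2% identity), Igkv1-117 and Igkv1-122 at 22 (92.4%), and Ighv11-2 and Ighv12-3 at 119 (59.0%). Over these 290 bases, 101 of the 216 members were at least 95% identical to another member of their chain, so reads can be split between neighbours, and the count of a single segment is uncertain in that respect. Ighv11-2 was 98.6% identical to Ighv11-1.

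Library totals ranged from 17182599 to 44201637 counts. Short-term replicate 3 stood apart from the other 14 libraries. Satellite repeat transcripts took 15.8% of its counts against at most 0.0420% elsewhere, and the recombination gene Rag1 stood at 1951 CPM (counts scaled by library size) against at most 7.07 CPM. A list of 12 T-cell and thymocyte genes summed to 2744 CPM there and to between 107 and 189 CPM in the other libraries. This library also had a count in 261 of the 348 rows with variable-segment symbols, against 189 to 223 elsewhere, and 124 of the 316 counts in rows below the minimum. The part of these features in the results was not tested. Several results, but not all, are also given without this library.

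Variable segments made up a small part of lung RNA, most of it in the HDM group. Their summed counts per library were 39148, 93875, 19312, 57466 and 54227 in HDM replicates 1 to 5, 30614, 11806, 29782, 53263 and 37749 in the long-term group, and 43196, 13329, 6428, 9590 and 17937 in the short-term group. As a share of all gene counts this was 0.132%, 0.212%, 0.0652%, 0.181% and 0.164% in the HDM group. The long-term libraries held 0.0964%, 0.0340%, 0.0911%, 0.151% and 0.0904%. The short-term libraries held 0.134%, 0.0445%, 0.0374%, 0.0301% and 0.0666%. The groups overlapped, with HDM replicate 3 low in its group and short-term replicate 1 high in its own. The means were 0.151% ± 0.0561 (SD, n = 5) for HDM, 0.0926% ± 0.0415 for long-term and 0.0626% ± 0.0424 for short-term. The short-term difference from HDM had an exact two-sided permutation p of 0.0397, which became 0.208 after Benjamini-Hochberg (BH) adjustment over the 21 tests of shares and usage. The long-term difference had an exact permutation p of 0.103 (adjusted 0.310), and short-term against long-term gave 0.270 (adjusted 0.567).

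**Figure D1:**
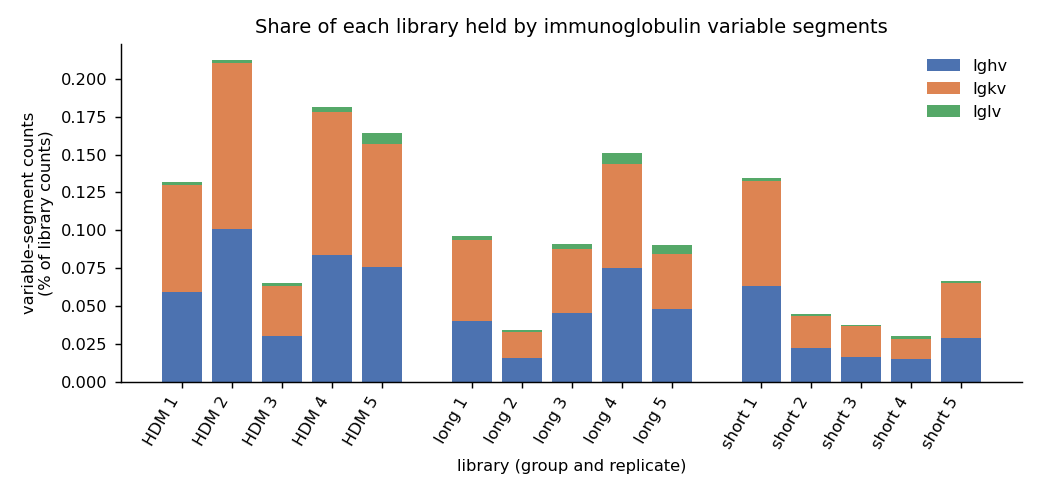
Stacked bars of the counts of the 108 Ighv, 105 Igkv and 3 Iglv segments as percent of all gene counts, 1 bar per library, 5 libraries per group. The HDM bars reach between 0.0652% and 0.212% and the short-term bars between 0.0301% and 0.134%, so the groups overlap, and Iglv is the thinnest layer throughout.

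Heavy-chain segments gave close to the same part of the variable-segment counts in each group, with means of 46.2% ± 0.849 in HDM, 47.8% ± 4.27 in long-term and 46.7% ± 3.401 in short-term libraries (SD, n = 5). The exact permutation p-values of these differences were between 0.444 and 0.754. The lambda share of light-chain counts was 2.77%, 1.93%, 5.10%, 3.46% and 7.96% in the HDM group, 4.97%, 5.58%, 7.24%, 9.68% and 15.0% in the long-term group, and 3.07%, 5.88%, 3.45%, 10.5% and 3.39% in the short-term group. The ranges overlapped in all 3 comparisons, and the largest mean difference, long-term 8.49% ± 4.06 against HDM 4.24% ± 2.38, had an exact permutation p of 0.0794 (adjusted 0.278).

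Iglv1, the main lambda segment of laboratory mice, was the most counted lambda segment in 15 of 15 libraries, with between 54.3% and 93.3% of lambda counts. Its share was highest in long-term replicates 4 and 5, at 93.3% and 92.1%. In these libraries Iglv1 stood at 67.8 and 57.3 CPM, and the lambda constant gene Iglc1 at 93.6 and 78.2 CPM. HDM replicate 5 also had high values of both, at 60.5 and 83.5 CPM. In the other 12 libraries Iglv1 was between 4.36 and 24.8 CPM and Iglc1 between 3.917 and 36.9 CPM.

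Heavy-chain usage was more even in the HDM libraries than in any library of an MSC group. Evenness is given as the effective number of segments, the inverse Simpson index, which is the number of equally used segments that would give the same chance of drawing a segment a second time. Every library was thinned to 2747 Ighv counts, the smallest total. The effective numbers were 26.9, 26.8, 24.9, 27.9 and 24.9 in HDM replicates 1 to 5. They were 11.5, 21.7, 11.05, 19.3 and 12.1 in the long-term group and 22.4, 21.8, 23.7, 18.4 and 7.37 in the short-term group. Neither MSC group overlapped with the HDM group, and the lowest value of all was in short-term replicate 5.

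The group means were 26.3 ± 1.33 for HDM, 15.2 ± 5.00 for long-term and 18.7 ± 6.64 for short-term libraries (SD, n = 5). Both MSC groups gave an exact two-sided permutation p of 0.00794 against HDM, the smallest that 5 against 5 libraries allow, and an adjusted p of 0.0833, which missed 0.05. The difference between the MSC groups, 3.58 segments, had an exact p of 0.389. With any single library left out, the difference from HDM stayed between -12.8 and -10.1 segments for long-term and between -8.80 and -4.72 for short-term. Counts per base of transcript left the ranges apart as well, at 24.3 to 27.4 for HDM, 10.7 to 21.5 for long-term and 7.18 to 24.2 for short-term.

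The number of Ighv segments with a count after thinning was 86.9 ± 2.30 in HDM, 86.2 ± 2.94 in long-term and 87.4 ± 6.09 in short-term libraries (SD, n = 5).

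**Figure D2:**
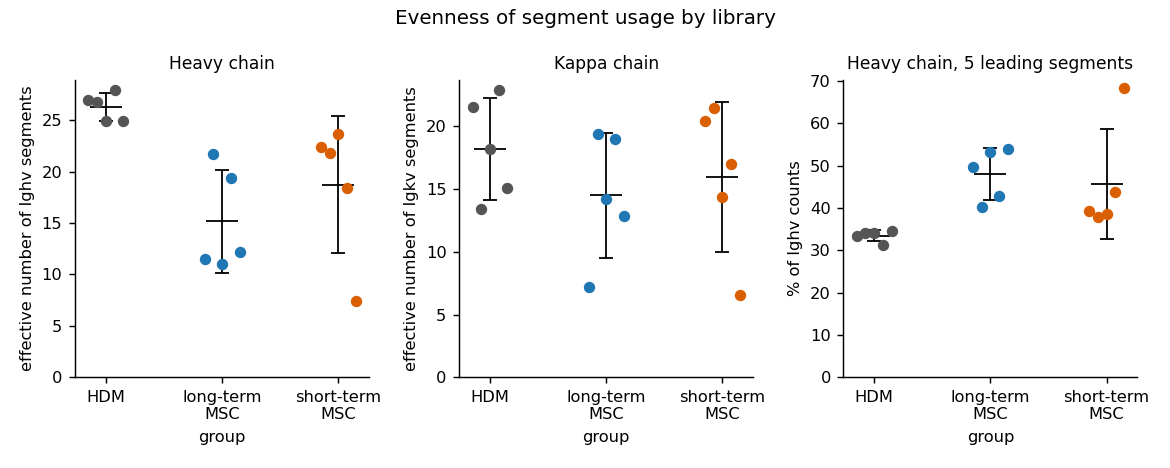
Effective number of Ighv segments, effective number of Igkv segments (both after thinning) and share of Ighv counts held by the 5 most counted segments, 1 point per library, with a black bar and whiskers for the group mean and SD (n = 5). In the first panel the HDM libraries lie between 24.9 and 27.9, above all 10 MSC libraries, in the second the groups overlap, and in the last the HDM libraries lie between 31.3% and 34.6%, below all MSC libraries.

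The kappa chain did not show this separation. Thinned to 3554 Igkv counts, the effective numbers were 21.5, 13.4, 18.2, 22.9 and 15.1 in HDM, 7.21, 19.4, 14.2, 19.0 and 12.9 in long-term, and 20.4, 21.4, 14.4, 17.004 and 6.56 in short-term libraries. The lowest values, in long-term replicate 1 and short-term replicate 5, belonged to libraries that were also uneven in Ighv. The means were 18.2 ± 4.06, 14.5 ± 4.98 and 15.9 ± 5.95 (SD, n = 5), and the exact permutation p-values lay between 0.230 and 0.675.

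The most counted heavy-chain segment differed from mouse to mouse. In HDM replicates 1 to 5 it was Ighv1-82 with 8.92% of Ighv counts, Ighv1-82 with 8.42%, Ighv6-3 with 11.5%, Ighv6-3 with 9.03% and Ighv1-72 with 9.71%. In the long-term group it was Ighv11-2 with 25.05%, Ighv1-80 with 9.34%, Ighv7-3 with 24.8%, Ighv6-6 with 12.3% and Ighv5-16 with 20.5%. In the short-term group it was Ighv1-82 with 10.0%, Ighv1-26 with 10.9%, Ighv14-4 with 10.4%, Ighv5-16 with 13.7% and Ighv1-80 with 26.1%. In 3 long-term libraries and 1 short-term library a single segment passed 20%, and in no HDM library did it reach 12%. Counting error is small beside this: the Wilson 95% interval, which covers counting error only, was 25.2% to 27.1% for Ighv1-80 in short-term replicate 5 and 10.8% to 12.1% for Ighv6-3 in HDM replicate 3.

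The mean share of the leading Ighv segment was 9.51% ± 1.18 in HDM, 18.4% ± 7.22 in long-term and 14.2% ± 6.80 in short-term libraries (SD, n = 5). The exact permutation p against HDM was 0.0238 for long-term (adjusted 0.167) and 0.0556 for short-term (adjusted 0.233). The share of the 5 most counted Ighv segments was 33.3%, 34.0%, 34.1%, 31.3% and 34.6% in HDM, 49.7%, 40.2%, 53.2%, 42.9% and 53.9% in long-term, and 39.2%, 37.8%, 38.4%, 43.9% and 68.4% in short-term libraries. This measure separated HDM from both MSC groups without overlap. With it in place of the leading segment the differences were 14.5 points for long-term and 12.1 points for short-term. Each had an exact permutation p of 0.00794, the smallest that 5 against 5 libraries allow, and an adjusted p of 0.0417. The effective Ighv number had the same exact permutation p against HDM, with an adjusted p of 0.0833. The adjusted value was lower here because the exchange put more tests at that smallest p into the family of 21. Both measures describe the evenness of the same Ighv counts, so the lower adjusted p is not separate evidence.

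Among kappa segments, 6 led at least 1 library, against 10 among heavy-chain segments. Igkv12-89 led 5 libraries, Igkv1-117 and Igkv14-126 each led several, and Igkv14-111, Igkv1-122 and Igkv6-15 led 1 each. The leading share was 10.7%, 22.3%, 15.7%, 11.5% and 19.8% in HDM, 34.0%, 9.42%, 15.8%, 15.3% and 21.3% in long-term, and 10.97%, 14.2%, 20.1%, 15.4% and 31.7% in short-term libraries. The groups overlapped, with exact permutation p-values between 0.587 and 0.873. The leading segment of each library was the same when counts were divided by transcript length, in 15 of 15 libraries for each chain.

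Usage was concentrated in few segments on average as well. With each library weighted equally, 12 Ighv and 10 Igkv segments made up 50% of their chain, and 47 and 43 segments made up 90%. The highest mean shares were 6.85% for Ighv1-82, 6.21% for Ighv11-2, 6.05% for Ighv5-16, 5.35% for Ighv1-80 and 4.58% for Ighv6-3. For kappa they were 10.4% for Igkv1-117, 9.87% for Igkv14-126, 9.78% for Igkv12-89, 3.48% for Igkv5-39 and 3.29% for Igkv9-120. At the other end, 46 Ighv and 44 Igkv members stayed under 1% of their chain in every library.

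**Figure D3:**
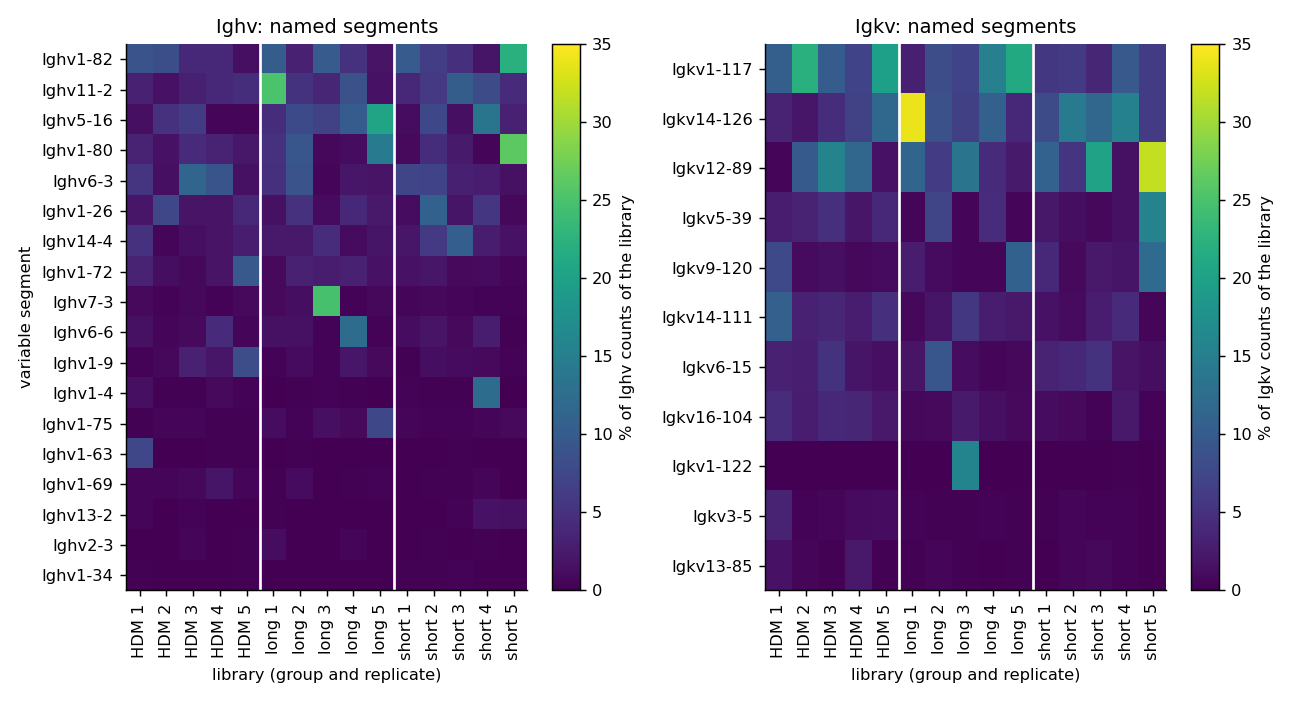
Share of its chain (percent) for the named Ighv and Igkv segments in each of the 15 libraries, ordered by group. Some high values sit in single libraries, such as Ighv7-3 and Igkv1-122 in long-term replicate 3. Ighv1-80 and Igkv12-89 were highest in short-term replicate 5, but each was also the leading segment elsewhere.

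Several libraries carried high segments in both chains, some of them high in no other library. Long-term replicate 3 had 24.8% Ighv7-3, against at most 1.32% in any other library, and 15.8% Igkv1-122, against at most 0.161%. In CPM these were 111 and 67.2 there, and at most 6.40 and 0.839 in the other 14 libraries. Short-term replicate 5 had 26.1% Ighv1-80 and 22.2% Ighv1-82 beside 31.7% Igkv12-89, 15.7% Igkv5-39 and 12.3% Igkv9-120. Not all of these were particular to it: Ighv1-80, Ighv1-82 and Igkv12-89 also led other libraries, and Igkv9-120 reached 10.9% in long-term replicate 5. Short-term replicate 4 had 12.3% Ighv1-4, against at most 1.47% elsewhere. Which heavy and light segments were joined in the same cells is not recorded in bulk counts.

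Between libraries of the same group, Ighv usage profiles shared 55.5% on average in HDM (range over 10 pairs 49.2% to 62.3%), 47.9% in long-term (37.6% to 54.9%) and 47.3% in short-term (33.5% to 60.3%), where the shared percentage sums the smaller of both shares over all segments. For Igkv the averages were 63.5%, 48.5% and 53.7%. These pairs share libraries and are given as a description with no test.

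The clearest link between chains was the B-1 pair. Ighv11-2 took 3.27%, 1.73%, 3.04%, 4.04% and 4.61% of Ighv counts in HDM, 25.05%, 5.10%, 3.69%, 8.64% and 1.68% in long-term, and 4.05%, 5.83%, 10.4%, 7.95% and 4.33% in short-term libraries. Igkv14-126 took 3.54%, 2.11%, 4.56%, 6.96% and 11.6% of Igkv counts in HDM, 34.0%, 8.71%, 6.68%, 10.7% and 3.89% in long-term, and 8.01%, 14.2%, 11.5%, 15.4% and 6.11% in short-term libraries. Both were highest in long-term replicate 1 and both were low in HDM replicate 2 and long-term replicate 5. Across the 15 libraries Pearson's r was 0.950 (permutation p = 6.0e-05, adjusted over 25 pairs 0.0015) and Spearman's rho was 0.896 (permutation p = 5.0e-05, adjusted 0.0012).

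The 25 pairs were those of the 5 Ighv and 5 Igkv segments with the highest mean shares. Without long-term replicate 1 and short-term replicate 3, the libraries farthest from the median of Ighv11-2, r was 0.839 and rho 0.896, and with the group means removed r was 0.944. Igkv14-126 ranked 1 of 105 Igkv segments by rho with Ighv11-2, and the next, Igkv8-19, had a rho of 0.504. The only other pair of the 25 with an adjusted p of r under 0.05 was Ighv1-80 with Igkv9-120 (r = 0.797, adjusted permutation p = 0.0399), whose r was -0.0175 without long-term replicate 5 and short-term replicate 5, so that relation rests on those libraries.

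The second B-1 pair was examined after its values had been seen. Ighv12-3 was rare, at 0.0561% to 0.341% of Ighv counts in HDM, 0.112% to 1.24% in long-term and 0.0843% to 0.312% in short-term libraries. Igkv4-91 took 0.395% to 1.63%, 0.807% to 4.92% and 1.08% to 3.09% of Igkv counts. Both were highest in long-term replicates 1 and 3. Their r was 0.914 and their rho 0.807 (n = 15; permutation p = 3.0e-05 and 0.00047, adjusted over 4 pairs 0.00012 and 0.00094), and without those 2 libraries r was 0.690 and rho 0.703. Igkv4-91 again ranked 1 of 105 by rho, ahead of Igkv3-11 at 0.553. The crossed combinations had rho 0.275 for Ighv11-2 with Igkv4-91 and 0.257 for Ighv12-3 with Igkv14-126. By Pearson's r, Ighv12-3 with Igkv14-126 also passed the threshold over the 4 pairs (r = 0.694, permutation p = 0.0333, adjusted 0.0445), but r was 0.127 without long-term replicates 1 and 3, so that relation rests on those libraries. For Ighv11-2 with Igkv4-91 r was 0.548 (permutation p = 0.0595), and -0.0279 without long-term replicate 1 and short-term replicate 3.

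**Figure D4:**
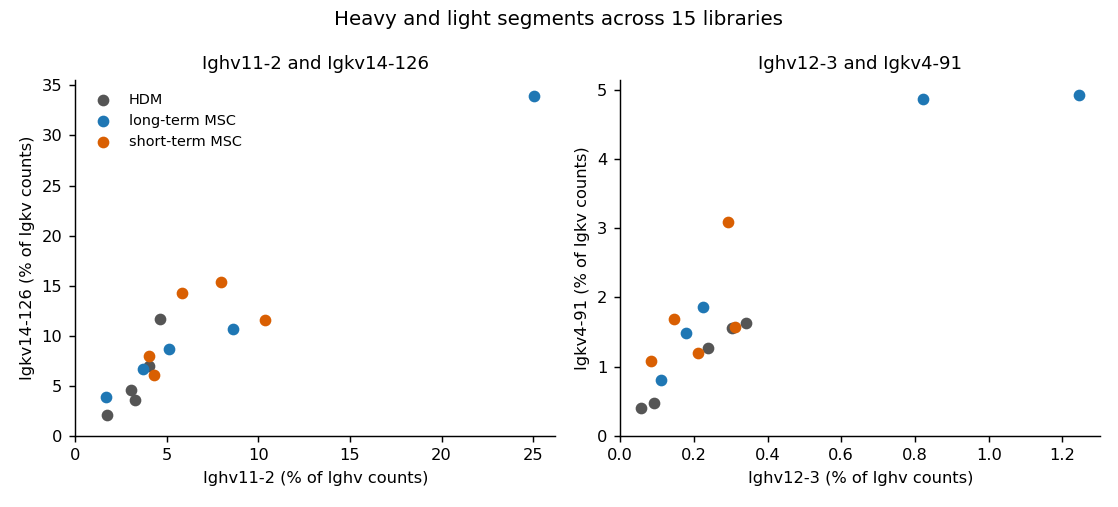
Share of Igkv counts against share of Ighv counts (percent) for Ighv11-2 with Igkv14-126 and for Ighv12-3 with Igkv4-91, 1 point per library (n = 15), coloured by group. Long-term replicate 1 is highest in both members of the first pair, at 25.05% and 34.0%, and the remaining libraries fall in a similar order in both chains (rho over all 15 = 0.896).

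Neither B-1 segment passed the test between groups, which compares levels scaled by library size and not shares of a chain. Ighv11-2 had a log2 fold change of -0.61 for short-term against HDM (edgeR quasi-likelihood test, BH-adjusted p = 0.620) and of 0.71 for long-term against HDM (adjusted p = 0.673). Igkv14-126 had -0.64 (adjusted p = 0.624) and 0.41 (adjusted p = 0.843). By share of its chain, each segment was on average higher in short-term than in HDM libraries. The Ighv11 family, which holds Ighv11-2, averaged 3.43% ± 1.22 of Ighv counts in HDM and 6.52% ± 2.67 in short-term libraries (SD, n = 5). These shares were not tested between groups.

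In the short-term group, 15 variable segments were called lower than in the HDM group and none was called higher. The test covered the 156 members with enough counts, which hold 99.0% of all member counts. The 60 untested members include all 20 pseudogenes. The 15 called are 9.62% of the 156 tested, where 2.89% of all 19562 tested genes were called lower, 1.9% higher and 4.79% in either direction (edgeR quasi-likelihood test, BH-adjusted p under 0.05). They comprise 5 of 84 Ighv, 9 of 69 Igkv and 1 of 3 Iglv segments. Below 0 were 144 of the 156 (92.3%, against 45.8% of all tested genes), with a median log2 fold change of -1.55 against 0.03. An unadjusted p under 0.05 was found for 68, all of them lower. These were 43.6% of the tested members, against 11.5% of all tested genes with such a p and a negative value.

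Ighv1-69 (chr12:115623161-115623595, minus strand) had the smallest p. Its level was 3.87, 6.80, 2.20, 17.9 and 3.79 CPM in HDM replicates 1 to 5 and 0.208, 0.507, 0.253, 0.860 and 0.319 CPM in the short-term group. The groups did not overlap, and HDM replicate 4 was high in its own. The log2 fold change was -3.96 (SE 0.58, adjusted p = 0.00655 by edgeR), and it was the only segment of the 15 called whichever single library was left out (adjusted p at most 0.0238). Its last 290 bases are 97.2% identical to Ighv1-59.

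Igkv16-104 (chr6:68425575-68426072, plus strand) was at 32.3, 30.6, 13.6, 36.6 and 19.9 CPM in HDM and at 7.74, 1.71, 0.885, 3.16 and 1.38 CPM in short-term libraries. Again the groups did not overlap, and the log2 fold change was -3.12 (SE 0.62, adjusted p = 0.0185 by edgeR). Its long-term libraries, at 4.29, 1.42, 10.6, 9.54 and 2.96 CPM, lay below every HDM library as well. Igkv14-111 (chr6:68256389-68256869, plus strand) was at 76.5, 37.8, 12.9, 27.2 and 39.5 CPM in HDM and at 11.4, 2.09, 6.07, 5.65 and 1.77 CPM in short-term libraries, also without overlap. The edgeR log2 fold change was -2.84 (SE 0.68, adjusted p = 0.0338). Without short-term replicate 3 the adjusted p by edgeR was 0.0531, and Igkv14-111 was called in 9 of the 15 fits with 1 library left out.

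Igkv1-117, the kappa segment with the highest mean share, was at 75.7, 263, 35.3, 69.9 and 166 CPM in HDM and at 37.3, 11.7, 8.34, 13.0 and 21.2 CPM in short-term libraries. These ranges overlapped only through short-term replicate 1 and HDM replicate 3. The log2 fold change was -2.72 (SE 0.69, adjusted p = 0.0415 by edgeR). Without short-term replicate 3 the adjusted p by edgeR was 0.0722, and Igkv1-117 was called in 7 of the 15 fits with 1 library left out. Its share of kappa counts averaged 13.995% ± 6.63 in HDM and 6.24% ± 2.18 in short-term libraries.

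Ighv1-63 had the largest fold change, and the size of that change rested on a single library. It was at 45.4 CPM in HDM replicate 1, between 0.279 and 1.62 CPM in the other HDM libraries and between 0.0708 and 0.357 CPM in the short-term group. Its log2 fold change was -5.62 (adjusted p = 0.0381 by edgeR) and -2.40 without HDM replicate 1 (adjusted p = 0.0445). Without short-term replicate 3 it was -5.66, with an adjusted p of 0.0628 by edgeR. The other called segments were Igkv3-5 (-3.70), Ighv1-9 (-3.67), Igkv13-85 (-3.34), Ighv1-12 (-2.53), Ighv5-17 (-2.49), Igkv12-44 (-2.46), Igkv8-28 (-2.35), Igkv3-4 (-2.25), Igkv10-96 (-2.07) and the lambda segment Iglv3 (-1.15), given as log2 fold changes.

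All short-term libraries lay below all HDM libraries for 7 of the 15 segments, and for 9 of the 156 tested members, or 5.77%. The same held for 3.73% of all 19562 tested genes, of which 2.89% were called lower. The number of segments called depended on single libraries, which are named here with the number found when each was left out. It was 1 without short-term replicate 5, where 0.547% of all tested genes were called lower. It was 4 without replicate 2 of that group (1.19% of all genes), 6 without replicate 3 (3.36%) and 6 without replicate 4 (2.77%). It was 8 without HDM replicate 1 (1.29%), 3 without HDM replicate 2 (0.765%) and 5 without HDM replicate 4 (1.39%). It was 2 without both HDM replicates 1 and 2. Without short-term replicate 3 the number of segments fell while the share over all genes rose from 2.89% to 3.36%. Of the 15 segments named above, 6 were called without short-term replicate 3: Ighv1-69, Igkv3-5, Igkv13-85, Igkv16-104, Igkv12-44 and Igkv8-28. The number called was 0 of 143 tested when the fit held only the 10 libraries compared. In that fit no gene at all was called, and 67 members had an unadjusted p under 0.05. By DESeq2 the number was 34, where 10.9% of all genes were called. The direction did not depend on one library: with each left out in turn, between 141 and 156 of the tested members were below 0, with a median between -2.08 and -1.26.

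In the long-term group no variable segment passed the test against HDM. Of all tested genes 0.092% were called lower, 0.00511% higher and 0.0971% in either direction. Below 0 were 121 of the 156 tested segments (77.6%, against 47.8% of all tested genes), with a median log2 fold change of -1.004 against 0.01. An unadjusted p under 0.05 was found for 45, 42 of them lower. Those 42 were 26.9% of the tested members, against 7.98% of all tested genes with such a p and a negative value. DESeq2 called 15 lower and limma voom 3 lower, and their shares over all genes are not given here. Without HDM replicate 3 edgeR called 3, where 0.308% of all tested genes were called lower. Without short-term replicate 3 it called 1, where 1.72% of all tested genes were called lower. The 15 segments called in the short-term comparison all had negative values here, from -5.71 to -0.94; both comparisons share the HDM libraries.

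The smallest p-values among lower segments, not past the test, belonged to Ighv1-69 (log2 fold change -2.39, edgeR BH-adjusted p = 0.0769), Igkv3-5 (-3.22, adjusted p = 0.0872) and Igkv13-85 (-3.58, adjusted p = 0.0892). Among higher segments they belonged to Igkv1-122 (5.62, adjusted p = 0.168), Ighv7-3 (2.55, adjusted p = 0.303) and Ighv1-75 (2.03, adjusted p = 0.319). The first 2 of these rested on long-term replicate 3: without it the values were 0.55 and -0.49. Ighv1-75 was at 35.005 CPM in long-term replicate 5 and between 0.417 and 7.08 CPM in the other 14 libraries.

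Between the MSC groups no segment passed the test, nor did any of the 19562 genes (percent called 0). A raw p under 0.05 was found for 23 segments, 20 of them lower in the short-term group, and neither DESeq2 nor limma voom called any. Those 20 were 12.8% of the tested members, against 2.38% of all tested genes with such a p and a negative value. The median log2 fold change was -0.53. The smallest p-values, each with an adjusted p of 0.623, were those of Ighv7-3 (-4.09), Igkv1-122 (-6.99) and Ighv2-3 (-2.88) on the lower side and of Ighv1-34 (2.07), Ighv1-4 (2.65) and Ighv13-2 (2.15) on the higher side.

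**Figure D5:**
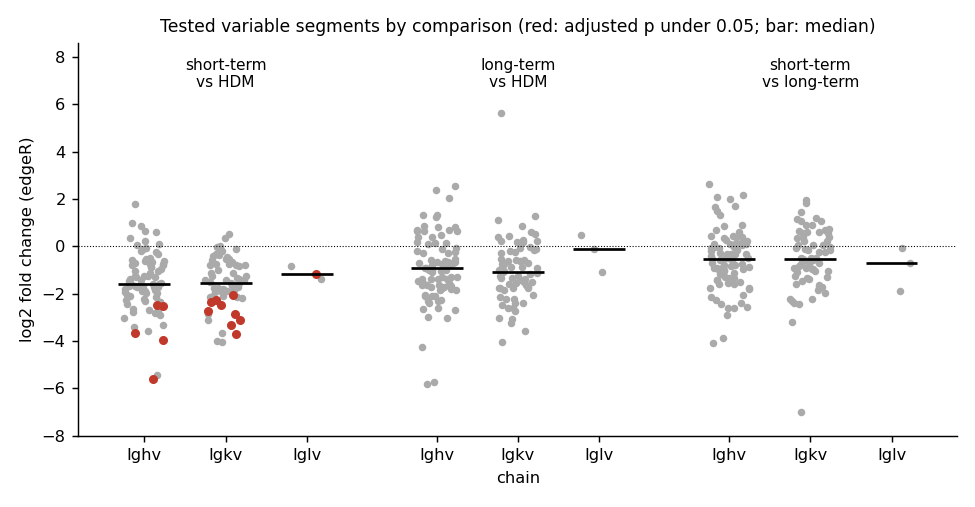
Log2 fold changes of the 156 tested variable segments in the 3 comparisons, split by chain, with called segments (edgeR, adjusted p under 0.05) in red, a bar at the median of each chain and a dotted line at 0. The Igkv medians are -1.56, -1.09 and -0.51, and the 15 called segments all belong to the short-term against HDM comparison.

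All 15 B-cell marker genes had negative log2 fold changes in the short-term group, with a median of -0.94. Of these 11 were called lower, where 2.89% of all tested genes were called lower. With single libraries left out, an alternative chosen after seeing the data, omitting replicate 5 of the short-term group gave 6 and omitting its replicate 3 gave 11, and each other omission gave between 8 and 13. Log2 fold changes were -1.12 for Fcrla, an Fc receptor-like protein inside B cells (edgeR BH-adjusted p = 0.00578), -1.06 for Cd79b, which carries signals of the antigen receptor into the cell (adjusted p = 0.00904), and -0.94 for Ms4a1, which encodes CD20 (adjusted p = 0.0109). Cd79b was at 76.9, 83.5, 73.7, 76.4 and 73.2 CPM in HDM, 52.1, 48.4, 53.999, 45.002 and 53.9 CPM in long-term, and 49.98, 43.4, 22.9, 41.5 and 25.5 CPM in short-term libraries. HDM did not overlap with either MSC group for this gene. The summed level of the whole B-cell list was 628 to 941 CPM in HDM, 431 to 560 CPM in long-term and 297 to 559 CPM in short-term libraries, again with HDM apart. The part of B-cell number in the segment results was not tested.

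Of 14 plasma-cell genes 1 passed the same test, Pou2af1, a B-lineage transcriptional coactivator, at -1.22 (adjusted p = 0.0131), and the median was -0.39. The summed level of this list was 940 to 1315 CPM in HDM, 763 to 1121 CPM in long-term and 519 to 964 CPM in short-term libraries, with overlap. Jchain, which joins IgM and IgA units, was at 267, 415, 133, 332 and 290 CPM in HDM, 176, 60.3, 194, 268 and 194 CPM in long-term, and 215, 78.0, 88.5, 56.8 and 141 CPM in short-term libraries; its log2 fold change of -1.31 did not pass (adjusted p = 0.0760). None of 7 germinal-centre genes was called (median -0.62). In the long-term group Fcrla was called among the B-cell genes (-0.93, adjusted p = 0.0382), where 0.092% of all tested genes were called lower, and no gene of the plasma-cell or germinal-centre list was. The number of B-cell genes called there was 9 when short-term replicate 3 was omitted from the common fit, 2 when HDM replicate 3 or short-term replicate 5 was, and 0 for each other library.

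All 12 constant-region genes, which encode the back part of the antibody chains, had negative log2 fold changes in the short-term group. Of these 5 were called lower, beside the 2.89% of all tested genes called lower. The number was 2 without HDM replicate 1, 2 or 4 or without short-term replicate 2, 3 or 5, 3 without HDM replicate 5 or long-term replicate 5, and 8 without short-term replicate 1. With all libraries these were Iglc2 (-1.39, edgeR BH-adjusted p = 0.00549), Ighd (-1.16, adjusted p = 0.0118), Ighg2b (-1.41, adjusted p = 0.0282), Igkc (-2.09, adjusted p = 0.0355) and Iglc3 (-1.30, adjusted p = 0.0402). Igkc, the only kappa constant gene, was at 3041, 6289, 976, 2647 and 2439 CPM in HDM, 1094, 398, 1082, 1374 and 876 CPM in long-term, and 1658, 561, 459, 275 and 653 CPM in short-term libraries. HDM and short-term libraries overlapped through HDM replicate 3 and short-term replicate 1. Ighm had -0.99 (adjusted p = 0.141), Igha -0.90 (adjusted p = 0.158) and Ighg1 -2.96 (adjusted p = 0.121).

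The ratio of kappa variable to constant counts had its lowest values in the HDM group. Per 100 Igkc counts there were 23.6, 18.7, 35.3, 37.2 and 34.4 Igkv counts in HDM, 48.2, 42.4, 39.2, 49.3 and 40.3 in long-term, and 39.9, 35.1, 48.9, 48.5 and 52.8 in short-term libraries. All long-term libraries lay above all HDM libraries, and short-term replicate 2 lay within the HDM range. Variable-segment CPM per summed B-cell-list CPM was 2.04 ± 0.691 in HDM, 1.93 ± 1.003 in long-term and 1.47 ± 0.720 in short-term libraries (SD, n = 5), and per plasma-cell-list CPM it was 1.29 ± 0.378, 0.907 ± 0.320 and 0.752 ± 0.372. These ratios are given as values with no test.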

How the data were processed

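Total RNA of lung lobes was sequenced after a stranded total RNA library preparation, per the labels' protocols. The authors deposited a table of raw counts per Ensembl gene for 15 libraries, aligned with STAR 2.5.3a to GRCm38 per the submitters' processing notes. Not given in the sources used here are the tool that counted reads, whether it used strand, how it treated reads matching several segments, and its annotation release. Columns of samples outside the label map numbered 0. Symbols, biotypes, coordinates and transcript sequences came from GENCODE M21, which matched 55240 of 55421 gene identifiers.

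A filter on low counts (filterByExpr) kept 19562 genes, and TMM factors scaled the libraries. In R 4.3.3, edgeR 4.0.16 was fitted once to all 15 libraries, with robust shrinkage, and its quasi-likelihood test was applied to 3 contrasts, two-sided, adjusted by Benjamini-Hochberg over all tested genes and called at an adjusted p under 0.05. CPM uses TMM-scaled library sizes. Shares and effective numbers were computed from the counts in Python 3.11.15; effective numbers are the mean of 100 random draws per library. They were compared by exact permutation of 5 against 5 libraries, adjusted over 21 tests. Correlation p-values come from 100000 permutations. Library totals ran from 17182599 to 44201637 and variable-segment counts from 6428 to 93875, and intervals cover counting error only. The tests were tried on simulated data.

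Segments are named by rule: the 5 highest mean shares of Ighv and Igkv, every Iglv, each library's leading segments, up to 8 called members with the lowest and highest fold changes per comparison, or, where none is called, the 3 smallest p-values in each direction; the other called segments and the pair Ighv12-3 and Igkv4-91 were added after their values were seen. Members and lists were chosen with earlier results of these data known. Alternatives used RLE and upper-quartile scaling, other filters, DESeq2 1.42.0, limma 3.58.1 voom with quality weights, and left-out libraries. Replicates were numbered by accession order, so the numbers pair no libraries. No within-group pair of libraries was identical. Figures were drawn with matplotlib 3.10.9.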

Additional observations from a re-analysis of the deposited data

Results flagged for a closer look

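In each group of 5 libraries, the shares of the named segments and the usage measures were searched for a library separated from the others by a gap of more than 0.71 of the group's whole range (Dixon's 95% critical value for 5 samples). Such gaps numbered 23, with 7 in HDM, 11 in the long-term and 5 in the short-term group, out of 39 examined in each. Chance flags about 1 in 20 groups, but many of these segments were named because they led a single library or had extreme test values, so the number of gaps cannot be set against that rate. The leading Ighv share and the Ighv1-80 share of short-term replicate 5 are the same value under both names. Shares are percent of the segment's chain.

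In HDM replicate 1 the separated shares were Ighv1-63 at 7.5001% (0.0898% to 0.184% in the other HDM libraries), Igkv14-111 at 10.7% (2.76% to 4.71%), Igkv3-5 at 3.55% (0.401% to 1.12%) and Igkv9-120 at 7.75% (0.795% to 1.39%). In HDM replicate 4 they were Ighv1-69 at 2.04% and Ighv6-6 at 4.23%, and in HDM replicate 3 Ighv2-3 at 0.628%.

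In the long-term group, replicate 1 stood apart in Igkv14-126 at 34.0% (3.89% to 10.7% in the others) and Ighv13-2 at 0.242%. Replicate 3 stood apart in Ighv7-3 at 24.8% (0.408% to 1.32%) and Igkv1-122 at 15.8% (0.0494% to 0.120%). Replicate 2 stood apart in Ighv1-69 at 1.02%, Igkv13-85 at 0.576%, Igkv6-15 at 9.42% and Iglv3 at 24.2%. Replicate 4 did so in Ighv6-6 at 12.3%, and replicate 5 in Ighv1-75 at 7.54% and Igkv9-120 at 10.9%.

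In the short-term group, 4 of the 5 gaps belonged to replicate 5: its leading Ighv share and its Ighv1-80 share, both 26.1% (10.0% to 13.7% and 0.506% to 4.56% in the others), Igkv5-39 at 15.7% and Igkv9-120 at 12.3%. The other was Ighv1-4 in replicate 4 at 12.3%, against 0.0892% to 0.316%. The part of any technical feature in these gaps was not tested.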

How the results depend on the processing

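The count of segments called lower in the short-term group against HDM, 15, was 1 with no filter on low counts, 34 by DESeq2, 0 with only the libraries compared, 2 without HDM replicates 1 and 2, and 1 to 19 with each library left out; other alternatives gave 11 to 17. Without the filter the median of all genes moved to 0.45, and 193 of 216 members were below 0 with a median of -1.44. Against HDM the long-term count, 0, was 15 by DESeq2, 3 by voom and 0 to 3 with each library left out. In the left-out fits, 0.547% to 3.5% of all tested genes were called lower for short-term against HDM. For long-term against HDM it was 0% to 1.72%. With the 5 most counted segments in place of the leading one, the Ighv differences from HDM were 12.1 points (short-term) and 14.5 points (long-term). They passed the adjusted threshold because the family then held more tests at the smallest exact permutation p, from related measures of Ighv evenness. With the same exchange, the Igkv difference between MSC groups reversed to 0.753. The short-term lambda difference reversed to -0.253 without HDM replicates 1 and 2. With single libraries left out, the differences that changed sign ranged from -3.64 to 0.0794 (effective Igkv number, short-term against HDM) and -0.396 to 3.78 (short-term against long-term), from -0.459 to 1.47 and -2.69 to 0.0660 (heavy share, same order), from -0.295 to 1.94 (lambda share, short-term against HDM), and from -0.534 to 5.61, -0.807 to 4.39 and -3.98 to 3.04 (leading Igkv share of long-term against HDM, of short-term against HDM and between the MSC groups). Ighv7-3, long-term against HDM, ranged from -0.49 (without long-term replicate 3) to 2.85. The causes were not tested. No paired analysis was possible because replicates were numbered by accession order, which marks no shared mouse, litter or batch. Shallow libraries limit rare segments: short-term replicate 3 had 6428 variable-segment counts.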

Other observations

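The Ighv1 family, with 55 of the 108 Ighv members, took 48.3% of Ighv counts on average over the 15 libraries (35.7% to 76.3%, highest in short-term replicate 5). Ighv11, with 2 members, averaged 6.28% and reached 25.05% in long-term replicate 1. Ighv7, with 3 members, averaged 2.85% and reached 25.2% in long-term replicate 3. Ighv5, with 9 members, averaged 10.5% and reached 28.4% in long-term replicate 5. Among kappa families, Igkv4 has the most members, 30, but took 11.9% of Igkv counts, less than Igkv1 at 17.3%, Igkv12 at 14.4% and Igkv14, with 4 members, at 13.6%.

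Position in the locus was described by cutting the Ighv members into 3 blocks of 36 along chromosome 12. The block with the lowest coordinates, which lies nearest to the D, J and constant segments, took 30.6% ± 2.29 of Ighv counts in HDM, 43.0% ± 9.40 in long-term and 35.1% ± 11.5 in short-term libraries (SD, n = 5). The block with the highest coordinates took 36.4% ± 6.26, 32.3% ± 5.15 and 35.1% ± 21.7. These blocks were described without a test.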
